A study of Mus musculus and Homo sapiens with 6 samples.

Results

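The regions described here are the strongest stretches of open chromatin that lie inside genes but away from the ends of genes, in NMuMG cells, an epithelial line from mouse mammary gland. ATAC-seq reads out open chromatin through the Tn5 transposase, which cuts accessible DNA and tags it with adapters. There was a single library for each of 4 cell numbers, namely 25000, 50000, 75000 and 100000 cells. All 4 used cultured cells below passage 10, grown in serum-containing medium and labelled with time 0 h, with no treatment or genetic change named. Another 2 samples, from human MDA-MB-231 cells, were not analysed here. Each library is represented by the authors' list of peaks with a whole-number score, which ranks peaks within a list, and no read counts or depths come with the lists.

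The 4 lists were merged into 55702 regions wherever peaks shared at least 1 bp. A region was kept when it lay on an autosome, had its centre inside a protein-coding gene and more than 1 kb from any annotated gene end, had a peak in all 4 lists, and had a highest score of 40 or more in each list. Chromosome 15 from 61 to 64 Mb, the block around Myc, was left out. This gave 727 strong intragenic regions. They are 8.56% of the 8493 regions that met the same conditions on position and were found in all 4 lists at any score, and the other 7766 are called weaker intragenic regions below. The strong regions were thus selected on their scores, their presence in the lists and the distance of 1 kb, which are described and not tested. With 1 library per cell number no test between cell numbers was possible, and regions are not replicates, so no p-value is given for any difference below. The intervals are exact Clopper-Pearson 95% intervals and cover counting error only.

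Accessible regions inside genes are of several kinds. Some are alternative promoters, from which a shorter transcript starts, and others are enhancers, bound by transcription factors that act on the surrounding gene or on a more distant one. In epithelial cells many enhancers are known to carry sites for AP-1 and TEAD factors, while promoters of widely used genes tend to be rich in the dinucleotide CpG, in SP and KLF sites and in CCAAT boxes, bound by NF-Y. The host of a region here is the protein-coding gene that contains its centre, which need not be the gene it acts on.

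Some of these regions contain annotated starts of transcripts. Sequences could be read for starts only, from the RefSeq start table of GRCm38.p6 (the assembly mm10 names), and 7 starts that lie inside strong intragenic regions are shown because they span the kinds of start found there. Each window runs from 250 bases before the start to 50 after it, 5′ to 3′ on the strand of the gene. Capitals mark matches, on either strand, to 9 short motifs: AP-1 (TGACTCA), CRE (TGACGTCA), TEAD (GGAATG), ETS (CCGGAAG), SP and KLF (GGGCGG), E-box (CACGTG), RUNX (TGTGGTT), NF-Y (CCAAT) and the TATA box (TATAAA). Matches of different motifs overlapped each other in 1.25% of all windows.
Trim45 chr3:100922243-100922542 (+ strand): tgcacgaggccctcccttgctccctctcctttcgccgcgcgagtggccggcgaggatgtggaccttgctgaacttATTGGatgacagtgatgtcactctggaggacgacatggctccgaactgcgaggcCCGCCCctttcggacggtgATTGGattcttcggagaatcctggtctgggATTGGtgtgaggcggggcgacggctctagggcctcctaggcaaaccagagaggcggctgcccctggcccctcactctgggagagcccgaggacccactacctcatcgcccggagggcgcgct
Cnnm2 chr19:46761359-46761658 (+ strand): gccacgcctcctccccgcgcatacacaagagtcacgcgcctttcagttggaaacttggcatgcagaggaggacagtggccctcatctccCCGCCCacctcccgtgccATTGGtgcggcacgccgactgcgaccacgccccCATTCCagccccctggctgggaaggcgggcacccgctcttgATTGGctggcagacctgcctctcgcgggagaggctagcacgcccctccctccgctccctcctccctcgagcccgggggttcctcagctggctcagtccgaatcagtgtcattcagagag
Lifr chr15:7129322-7129621 (+ strand): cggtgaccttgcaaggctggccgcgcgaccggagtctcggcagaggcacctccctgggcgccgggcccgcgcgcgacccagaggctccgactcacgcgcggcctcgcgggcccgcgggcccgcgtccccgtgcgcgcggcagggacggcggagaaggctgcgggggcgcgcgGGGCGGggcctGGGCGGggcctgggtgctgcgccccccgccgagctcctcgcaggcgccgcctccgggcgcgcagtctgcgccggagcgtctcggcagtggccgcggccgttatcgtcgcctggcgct
Hdac4 chr1:92180292-92180591 (- strand): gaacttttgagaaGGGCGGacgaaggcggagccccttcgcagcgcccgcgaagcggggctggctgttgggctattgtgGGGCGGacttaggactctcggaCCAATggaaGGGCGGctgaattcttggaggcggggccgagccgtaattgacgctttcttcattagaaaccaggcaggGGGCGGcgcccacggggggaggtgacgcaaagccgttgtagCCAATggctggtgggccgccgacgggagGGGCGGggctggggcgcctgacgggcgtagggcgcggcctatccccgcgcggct
Runx1 chr16:92697280-92697579 (- strand): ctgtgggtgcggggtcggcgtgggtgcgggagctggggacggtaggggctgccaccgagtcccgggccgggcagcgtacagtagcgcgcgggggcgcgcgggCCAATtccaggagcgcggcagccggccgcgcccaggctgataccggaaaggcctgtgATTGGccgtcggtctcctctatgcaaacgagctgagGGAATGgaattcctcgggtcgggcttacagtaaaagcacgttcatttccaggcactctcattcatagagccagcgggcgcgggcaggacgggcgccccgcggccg
Shc1 chr3:89421371-89421670 (+ strand): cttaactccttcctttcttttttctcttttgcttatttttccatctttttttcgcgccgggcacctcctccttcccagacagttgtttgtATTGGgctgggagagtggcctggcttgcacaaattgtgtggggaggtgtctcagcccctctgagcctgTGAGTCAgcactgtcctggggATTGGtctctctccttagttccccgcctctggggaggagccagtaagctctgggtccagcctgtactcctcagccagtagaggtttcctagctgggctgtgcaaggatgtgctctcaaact
Cald1 chr6:34709194-34709493 (+ strand): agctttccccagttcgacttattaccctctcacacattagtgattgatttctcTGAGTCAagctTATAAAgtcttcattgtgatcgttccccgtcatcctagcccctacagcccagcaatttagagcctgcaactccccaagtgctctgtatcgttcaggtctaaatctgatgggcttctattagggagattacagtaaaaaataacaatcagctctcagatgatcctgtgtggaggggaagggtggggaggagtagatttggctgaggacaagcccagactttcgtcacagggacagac

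The first 5 windows are CpG-rich. Lifr, which encodes the receptor of leukaemia inhibitory factor, held 53 CpG in its 300 bases and 2 SP and KLF matches. Hdac4, a histone deacetylase gene, held 32 CpG, 5 SP and KLF matches and 2 CCAAT boxes. Runx1, a transcription factor gene, held 35 CpG and 2 CCAAT boxes, and Trim45, which encodes a protein of the TRIM family, held 23 CpG and 3 CCAAT boxes. The remaining windows are CpG-poor and each holds an AP-1 match. Shc1, which encodes an adaptor of growth factor receptors, held 4 CpG and an AP-1 match beside 2 CCAAT boxes. Cald1, which encodes the actin-binding protein caldesmon, held 5 CpG, with an AP-1 match and a TATA box. Trim45, Cnnm2 and Lifr were taken by the rule for the highest or most crowded regions; the other windows belong to genes named by rule from the gene lists but were chosen for display after their sequences were seen.

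Of the 727 strong intragenic regions, 556 had a host in the start table, and 148 of these 556 (26.6%, interval 23.0 to 30.5) contained an annotated start. Among weaker intragenic regions 653 of 6136 (10.6%, 9.88 to 11.4) did. The strong regions were wider, so the count was repeated with a fixed distance. A start lay within 300 bp of the centre in 24.1% (20.6 to 27.9) of the strong regions and in 9.79% (9.06 to 10.6) of the weaker ones. Farther inside genes starts were less frequent. Beyond 10 kb from any gene end, 13.1% (9.06 to 18) of 237 strong and 5.06% (4.32 to 5.88) of 3183 weaker regions contained a start. The share was higher in each higher band of the lowest score of a region over the 4 lists. It was 6.81% at 8 to 14, 12.7% at 15 to 24, 18.7% at 25 to 39, 24.8% at 40 to 59, 30.7% at 60 to 99 and 42.9% at 100 and above. The last value rests on 14 regions and has an interval of 17.7 to 71.1.

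**Figure D1:**
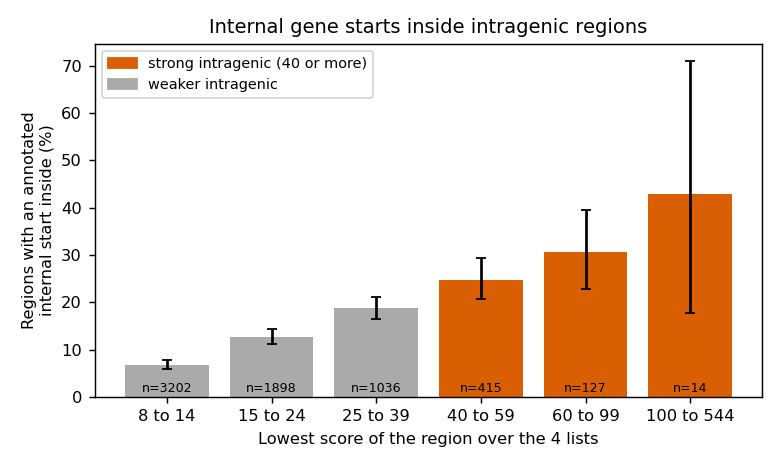
Percent of intragenic regions with an annotated internal start inside, by the lowest score of the region over the 4 lists, for hosts in the start table; bars are shares, error bars exact Clopper-Pearson 95% intervals (counting error only), n the number of regions. The share is higher in each band than in the one before, going up from 6.81% to 42.9%.

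Whether these starts are alternative promoters was not settled by the start table. In 64 of the 147 genes concerned (43.5%, 35.4 to 52.0) the start inside the strong region is the only listed start of the gene, while the annotated gene extends farther out. Trim45, Cnnm2 and Hdac4 are of this kind. The share was 299 of 607 (49.3%, 45.2 to 53.3) for genes with such a start in a weaker region only, and the intervals overlap. In 58 genes (39.5%, 31.5 to 47.8) a start within 1 kb of the outer end is listed too, as it is for Runx1, Shc1 and Cald1. Over all autosomal protein-coding genes in the table, a start is listed within 1 kb of the outer end for 90%. The 147 genes were picked for an internal start, and those with no other listed start cannot have an outer one. The 39.5% and 90% are therefore not like for like. Of the genes printed above without a listed outer start, Hdac4 and Trim45 had a peak at the outer start in all 4 lists, Lifr in 3 and Cnnm2 in none. The Trim45 region itself reaches within 1 kb of that start. Whether unlisted starts lie at these ends was not tested.

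Seen from the starts, 3377 internal starts of autosomal protein-coding genes lie more than 1 kb from any gene end, and 160 of them (4.74%) fell inside a strong intragenic region. A further 727 fell inside a weaker intragenic region and 2253 (66.7%, 65.1 to 68.3) had no listed peak in any library. The remaining 237 (7.02%) fell inside other merged regions and are not compared below as a group. The windows of the other 3 groups differed in composition. The median window held 24 CpG for starts in strong regions, 20 for starts in weaker regions and 5 for starts without a peak, against 7 over all 31396 autosomal starts. The ratio of observed to expected CpG exceeded 0.6 in 81.9%, 70.2% and 17.0% of these windows, against 36.4% over all starts.

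Motif matches followed this difference in part. SP and KLF matches were present in 76.9% (69.6 to 83.2) of windows in strong regions, 63.0% (59.4 to 66.5) in weaker regions and 24.2% (22.4 to 26) without a peak, with 36.0% over all starts. CCAAT boxes were in 50% (42.0 to 58.0) of windows in strong regions, against 32.3% (28.9 to 35.9) in weaker regions, 34.5% without a peak and 37.3% over all starts. ETS matches were in 20.6% (14.6 to 27.7), 14.9% (12.3 to 17.7), 2.49% and 9% in the same order. AP-1 matches were in 17 of the 160 windows in strong regions (10.6%, 6.31 to 16.5), against 5.64% (4.08 to 7.57) in weaker regions, 4.75% without a peak and 5.26% over all starts, and the first interval overlaps that of the weaker regions. TEAD matches were in 11.9% (7.30 to 17.9) against 14.6% over all starts, CRE matches in 3.12% against 1.83%, and E-boxes in 6.25% against 7.14%. RUNX matches were in 1.88% against 5.32%, and TATA boxes in 5% against 13.6%. In weaker regions the shares were 13.8% for TEAD, 2.89% for CRE, 9.9% for E-boxes, 3.44% for RUNX and 4.95% for TATA boxes. The low TATA share was thus common to starts in strong and weaker regions. CpG content differs between these groups, and its part in the motif shares was not tested.

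The definition asks for a score of 40 or more in each list, which leaves out regions strong in 1 list and weak in another. Within this selection the deposited scores of a strong intragenic region were mostly close to each other in the 4 lists, and so were its peak positions. How the scores scale between libraries is not stated, so their ratios are descriptions only. Their score was between 40 and 544 at 25000 cells, with a median of 55, between 40 and 629 at 50000 cells (median 65), between 40 and 599 at 75000 cells (median 59), and between 40 and 725 at 100000 cells (median 66). The highest of the 4 scores of a region was at a median 1.41 times the lowest, and under 2 times the lowest in 707 of 727 regions (97.2%). The lowest score of a region was that of the 25000-cell library alone in 340 regions and that of the 75000-cell library alone in 194. These are the libraries with the smallest share of all peaks scoring 40 or more, at 11.2% and 13.7%, against 15.3% at 50000 and 15.5% at 100000 cells. The centres of the highest peaks of the 4 libraries lay within 100 bp of each other in 652 strong regions (89.7%, 87.2 to 91.8) and in 79.3% (78.4 to 80.2) of the weaker ones, with coordinates deposited in steps of 50 bp. The median strong region was 850 bp wide and the median weaker one 650 bp. Those with an internal start were wider, at a median of 950 bp against 800 bp for those without.

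The threshold of 40 cut through a continuous range. Exactly 40 regions had 40 as their lowest score and another 40 had 39. Just inside were regions in D2hgdh, a dehydrogenase gene, with scores of 40, 47, 46 and 44 from 25000 to 100000 cells, in Pla2g4a, a cytosolic phospholipase gene, with 40, 87, 71 and 70, and in Slamf9 with 51, 51, 40 and 57. Just outside were regions in Lyg1 (39, 39, 72 and 67), in Slc39a10, a zinc transporter gene (42, 39, 55 and 47), and in Epha4, an ephrin receptor gene (46, 46, 39 and 43).

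The region with the highest score ranks lay in Fyb, which encodes an adaptor protein known from T cells and platelets, at chr15:6564751-6565600. It scored 544, 629, 599 and 725 from 25000 to 100000 cells, at least 2.04 times the next highest strong intragenic region of the same library. Next came a region in Chl1, a gene of the L1 family of neural adhesion molecules, at chr6:103648851-103649500 with 259, 252, 293 and 283. It is 650 bp wide, the smallest width among the 727 regions, shared by 11 of them. No other region of any library lay inside Chl1, and neither end of the gene had a peak. Trpm6, a magnesium channel gene, followed with 162, 231, 210 and 221 at chr19:18890001-18890850, close to the far end of the gene. The region in Sel1l3 at chr5:53196201-53197050 scored 190, 194, 188 and 229. Sfi1, which encodes a centrosomal protein, had 172, 172, 192 and 180 at chr11:3161001-3161800, in a gene with 52 merged regions of which 18 were found in all 4 lists. Whether repeated sequence or misplaced reads add to the highest scores was not tested.

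The regions in Trpm6, Ltbp3, Cnnm2 and Gucy2g, among the 12 highest, lie on chromosome 19. That chromosome had the largest share of strong intragenic regions of any autosome (18%). Ltbp3, which encodes a protein that binds latent TGF-beta, scored 140, 166, 152 and 167 at chr19:5743251-5744100, 2.78 kb into the gene. The region at the internal start of Trim45, chr3:100921751-100922700, scored 119, 226, 153 and 164. That at the start of Cnnm2, which encodes a protein of magnesium transport, scored 124, 167, 147 and 146 at chr19:46760651-46762000. Gucy2g, a guanylate cyclase gene, had 145, 188, 183 and 129 at chr19:55231951-55232700. Those in Egflam and Lifr lie near the Fyb region on chromosome 15.

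**Figure D2:**
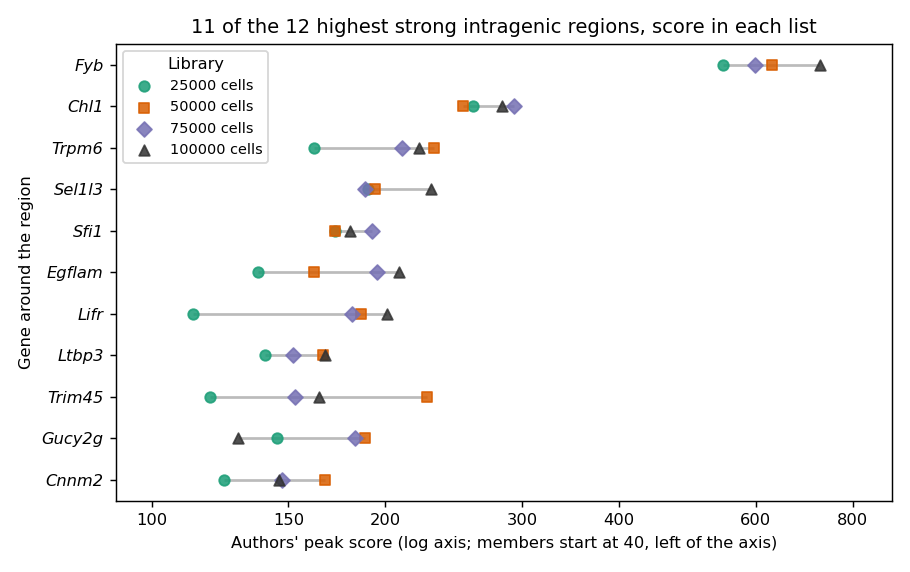
Authors' peak score (log axis) of 11 of the 12 strong intragenic regions with the highest mean score percentile, named by host gene, in the libraries from 25000, 50000, 75000 and 100000 cells; grey lines join the lowest and highest score. The Fyb region stands at 544 to 725 in every library, and the others lie between 113 and 293.

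Chromosome 15 between 6 and 8 Mb held the densest group. Of its 36 intragenic regions found in all 4 lists, 19 were strong, with 7 in Fyb, 5 in Lifr, 2 each in Egflam, Osmr and Wdr70, and 1 in Rictor. Lifr and Osmr encode receptors of the interleukin-6 cytokine family, Egflam an extracellular matrix protein, and Rictor a subunit of the kinase complex mTORC2. In Fyb the other strong regions had lowest scores of 44 to 92. The 5 regions of Lifr lay between 38.9 and 56.0 kb from its outer start. Its internal start, printed above, lay in the region at chr15:7129001-7130100, which scored 78, 142, 121 and 216, the largest ratio of highest to lowest score among all 727 regions, at 2.77. The highest Lifr region, at chr15:7135901-7136650, carried no listed start and scored 113, 186, 181 and 201. Egflam scored 137, 162, 195 and 208 at chr15:7213451-7214250, and Osmr 85, 119, 99 and 119 at chr15:6849551-6850500.

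The same stretch was also crowded with weak peaks. The 1 Mb windows from 6 and from 7 Mb contained 119 and 99 merged regions, compared with 24 in the window before them, 17 in the window after and a median of 20 over occupied autosomal windows. Of the 119 and 99, 24 and 22 were in all 4 lists. Autosomal windows with any region in all 4 lists held a median of 9 of them, with an upper quartile of 17. Over occupied autosomal windows the upper quartile was 35 merged regions, and 138 of 2231 windows had more than 60. The change was abrupt at the highest Fyb region, with 32 merged regions in the 100 kb above it and 2 in the 100 kb below it. No region of any library lay in the first part of Fyb, before the highest region. Within Fyb, 24 of 33 merged regions were missing from at least 1 list, none with a score above 18, and within Lifr 36 of 44, none above 24. The crowded stretch ran from chr15:6564751-7605250, or 1.04 Mb with 195 merged regions, before a gap of 111 kb. The number of copies of this stretch in the cells was not measured.

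**Figure D3:**
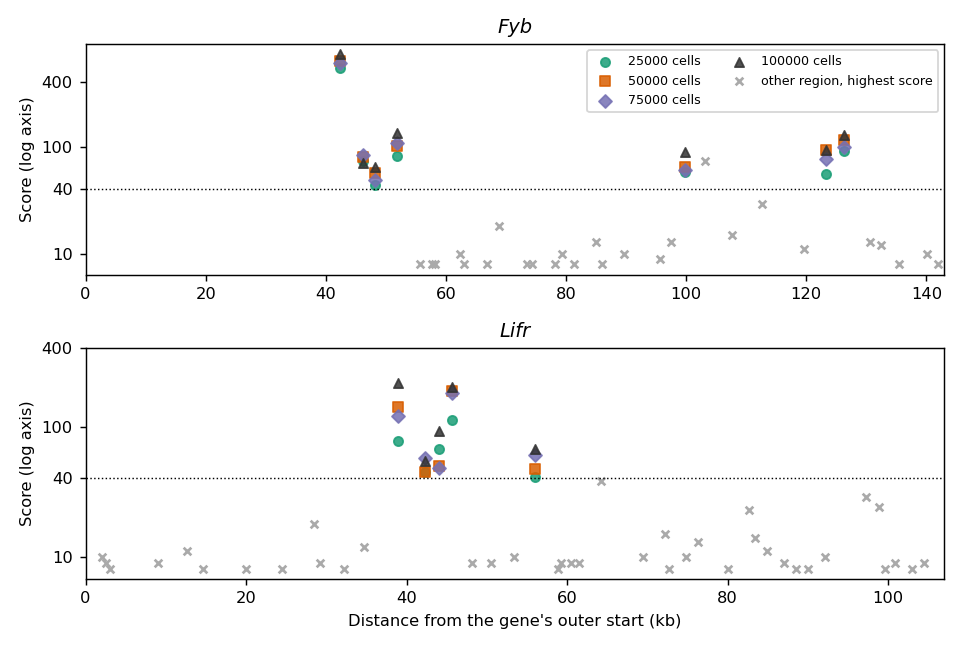
Score (log axis) of regions along Fyb (143 kb) and Lifr (107 kb) against distance from the outer start of the gene; coloured points are the strong intragenic regions in each library, grey crosses the highest score of any other merged region, and the dotted line is a score of 40. In Fyb no region precedes the highest one at 42.4 kb, and weak regions follow it along the rest of the gene.

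Chromosomes differed in how many of their intragenic regions were strong. Chromosome 19 had 84 strong regions among 467 (18%), more than any other autosome in number and share. Chromosome 4 had 5 of 292 (1.71%) and chromosome 14 had 3 of 181 (1.66%). On the other 16 autosomes the share was between 4.26% and 12%, with a median of 7.83%. The same 3 chromosomes stood at the extremes among regions that the definition did not use. Among regions at gene ends found in all 4 lists, 40.1% on chromosome 19, 4.94% on chromosome 4 and 8.02% on chromosome 14 scored 40 or more in each list, against 14% to 26.4% on the other 16. Among regions away from protein-coding genes the shares were 14.5%, 1.38% and 3.11%, against 4.69% to 11.1%. Chromosome number and openness cannot be told apart from these lists. Without chromosome 19 the share of strong regions with an internal start was 26.7% and that of weaker ones 10.8%.

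**Figure D4:**
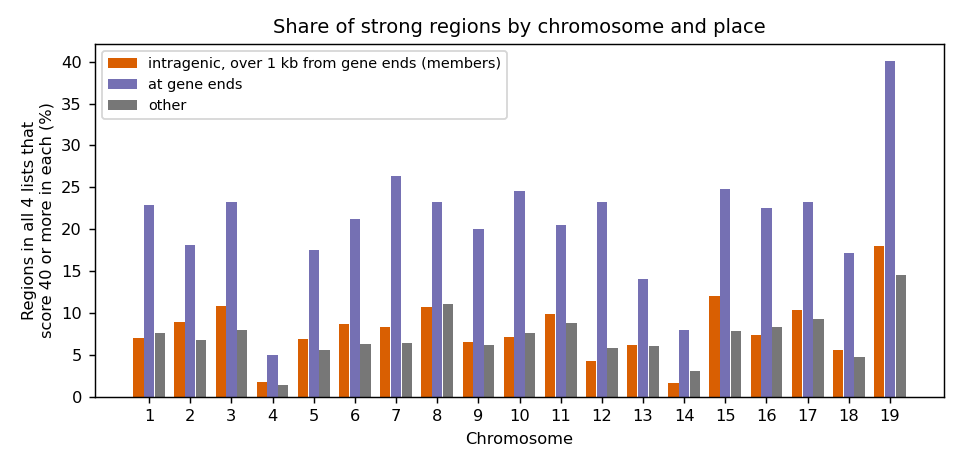
Percent of regions found in all 4 lists that score 40 or more in each, for every autosome, for intragenic regions away from gene ends, regions at gene ends and other regions (chromosome 15 without 61 to 64 Mb). Chromosome 19 is highest in each class and chromosomes 4 and 14 are lowest.

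Over all autosomes, regions at gene ends reached a score of 40 in each list more often than those inside genes. The share was 8.56% (7.97 to 9.18) for intragenic regions, 21.2% (20.4 to 22.0) for 9532 regions at gene ends and 7.37% (6.78 to 8.00) for 7173 other regions. Strong regions at gene ends were also wider, with a median of 950 bp against 850 bp inside genes and 800 bp elsewhere.

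Strong intragenic regions lay toward the start of their host. For 548 regions with a single host of known strand, 343 (62.6%, 58.4 to 66.7) lay nearer to the outer start of the gene than to its far end, compared with 57.1% (55.8 to 58.3) of 6085 weaker ones. The first 25% of the gene's length held 35.2% of strong and 30% of weaker regions, and the last 25% held 15.5% and 19.8%. Without the regions that contain an internal start, the shares nearer to the outer start were 56.0% (51.0 to 60.9) and 53.9% (52.5 to 55.2), whose intervals overlap. The median strong region was 22.3 kb from the outer start, and the middle 50% of them lay between 5.89 and 61.9 kb.

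**Figure D5:**
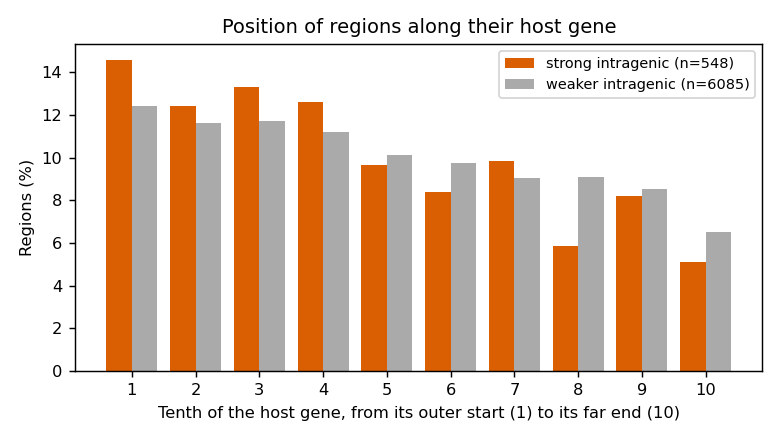
Percent of strong intragenic (n = 548) and weaker intragenic (n = 6085) regions in each 10% of the length of the host gene, counted from the outer start, for regions with 1 host of known strand. The first 10% holds 14.6% of strong and 12.4% of weaker regions, and the last 10% holds 5.11% and 6.51%.

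The regions farthest from any gene end were in very long genes. In Rbfox1, a splicing factor gene known from neurons, a region at chr16:6963351-6964000 was 449 kb from the nearest end and scored 62, 81, 65 and 68. In Ptprt, a receptor phosphatase gene, the distance was 423 kb and the scores 45, 53, 71 and 61. The third, in Oxr1, was 165 kb away and scored 40, 55, 42 and 61. Neither end of Rbfox1 or Ptprt had a peak in any library. The widest regions were in Plec, which encodes the cytoskeletal linker plectin (1650 bp), in Maff, a small Maf factor gene (1600 bp), and in Mxi1, an antagonist of Myc (1600 bp). After Lifr, the scores were least even in Myo3a, a myosin gene (58, 103, 151 and 141), and in Dgkd, a diacylglycerol kinase gene (77, 111, 45 and 67).

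The 727 regions lay in 652 genes, or 3.16% of the 20665 autosomal protein-coding genes, with 14 regions inside 2 genes at once. Of the host genes 584 had 1 strong region, 54 had 2 and 14 had 3 or more. Fyb and Lifr led with 7 and 5. Plec had 4, all on chromosome 15 between 76 and 77 Mb, with its highest at chr15:76203901-76204700 scoring 58, 95, 88 and 87. Dagla, a lipase gene of endocannabinoid synthesis, had 3 with a highest region of 77, 75, 93 and 73. Frmd4a, a gene of epithelial polarity, had 3 with a highest of 65, 68, 86 and 61, between 301 and 525 kb from its outer start. Fto, which encodes an RNA demethylase, had 3 with a highest of 60, 85, 83 and 84. Only 57 regions (7.84%) had another strong region within 10 kb.

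Host genes were long. Their median length was 65.7 kb, against 17.5 kb for all autosomal protein-coding genes. The share of genes with a strong region was 1.03% under 20 kb, 3.36% from 20 to 50 kb, 5.60% from 50 to 100 kb and 10.4% above. The gene lists below contain genes of different lengths and are to be read against these shares.

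The ends of the host genes were open about as often as those of genes with weaker regions alone. A region centred just beyond 1 kb can itself overlap the 1 kb around an end, as in Trim45 (1.02 kb away, 950 bp wide). The measure is thus not independent of the distance in the definition, for strong or for weaker regions. A peak overlapped the 1 kb around either gene end in all 4 lists for 386 of 652 host genes (59.2%, 55.3 to 63.0) and for 57.2% (55.6 to 58.8) of 3775 genes with weaker intragenic regions only, compared with 45.3% of all autosomal protein-coding genes. At the outer start it was 282 of 501 hosts of known strand (56.3%, 51.8 to 60.7) against 55.7% (53.9 to 57.4), with 44.4% of all such genes. At the far end it was 7.78% against 6.56%. For 168 hosts (33.5%) the outer start had no peak in any library, close to the 34.1% of genes with weaker regions only and below the 48.0% of all autosomal protein-coding genes of known strand. Fyb, Egflam and Gucy2g were such genes, and so were Twist2, Tjp1 and Runx1. In genes above 100 kb the outer start was open in 53.3% of hosts, 49.8% of genes with weaker regions only and 32.0% of genes with no intragenic region in all 4 lists.

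Gene-end peaks of marker genes were checked against the label of the cells. A peak in all 4 lists was found for 6 of 14 epithelial markers (Cdh1, Krt8, Krt18, Krt19, Jup and Elf3). This is 42.9%, near the 45.3% of all autosomal protein-coding genes, and Epcam, Cldn3, Cldn4, Cldn7, Tjp1, Esrp1, Grhl2 and Ovol1 had no such peak. It was found for 1 of 5 blood markers (Spi1), 1 of 6 fibroblast markers (Col1a1), and 0 of 4 endothelial and 0 of 4 neuronal markers.

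Of 481 autosomal genes in 21 gene lists, 52 (10.8%) hosted a strong intragenic region, against 3.16% of all autosomal protein-coding genes. The lists were chosen with earlier results of these data known and differ in gene length, so these shares are no test of an excess. Counts within a list are small and several changed with the settings. Among 30 genes of cell junctions and polarity there were 5 hosts (16.7%). They included Pkp2, a desmosome gene, with 83, 80, 78 and 85, Tjp1, which encodes the tight junction scaffold ZO-1, with 77, 74, 69 and 78, and Ctnnd1 and Ocln, genes of p120-catenin and occludin. The scores of Pkp2 and Tjp1 varied little, with ratios of highest to lowest of 1.09 and 1.13. The Tjp1 region lay 58.0 kb inside the gene, at chr7:65469451-65470200. Among 20 epithelial transcription factor genes, Runx1 alone was a host. It had 3 strong regions, with the highest at chr16:92620501-92621550 scoring 77, 87, 80 and 59, and the one at the printed start scoring 45, 66, 67 and 54.

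Adhesion genes gave 5 hosts among 28 (17.9%). Tns4, a tensin gene, scored 58, 74, 58 and 79. Itgb6, which encodes an epithelial integrin subunit that activates TGF-beta, scored 55, 57, 63 and 67, and Bcar1, a docking protein gene of focal adhesions, 51, 61, 57 and 54. Fermt1 and Tns3 were the others. Among 30 genes of the actin cytoskeleton and its regulation there were 3 hosts, with 7 when the 25000-cell list was left out and 1 beyond 5 kb from gene ends. Arhgap26, which encodes a GTPase-activating protein, scored 84, 69, 85 and 109, the non-muscle myosin gene Myh9 53, 80, 60 and 78, and Cald1 67, 43, 48 and 60. The median length of these lists was 71.5 and 93.1 kb. Of 24 collagen and matrix genes 2 were hosts, Lamb3, a laminin chain gene, with 46, 68, 62 and 56, and Col18a1 with 47, 56, 51 and 67. This list had 8 hosts (33.3%) at a score limit of 30 and 0 at a limit of 60.

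TGF-beta signalling, which drives NMuMG cells toward a mesenchymal form, had 4 hosts among 28 genes (14.3%). There were 0 when score percentiles replaced scores and 2 when peaks were resized to 200 bp. They were the signal transducer gene Smad3, with 59, 52, 42 and 54, and both inhibitory SMAD genes, Smad7 with 47, 68, 42 and 50 and Smad6 with 47, 45, 41 and 61, besides Ltbp1, a matrix carrier of the ligand, with 43, 44, 55 and 58. Of 20 genes of epithelial-mesenchymal transition, Twist2 and Hmga2 were hosts. Twist2, a repressor gene, had 2 strong regions and no peak at either end. Hmga2, a chromatin protein gene, scored 70, 70, 63 and 92 at 54.3 kb from its outer start.

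Growth factor signalling was represented by 4 of 30 receptor and ligand genes (13.3%). The insulin-like growth factor receptor gene Igf1r scored 80, 100, 107 and 92 at chr7:68021451-68022300, 69.6 kb into the gene. Egfr, the EGF receptor gene, had 2 strong regions near each other, the higher one with 79, 84, 62 and 64 at chr11:16800351-16801150. The insulin receptor gene Insr scored 75, 81, 54 and 69, and Ddr1, a collagen receptor gene, was the fourth. Among 20 genes of MAPK feedback and adaptors, the phosphatase genes Dusp10 (86, 80, 67 and 83) and Dusp5 (56, 52, 48 and 50) and the adaptor gene Shc1 (66, 53, 71 and 63) were hosts. Of 28 Wnt pathway genes 3 were hosts. Tcf7l2, a transcription factor of the pathway, scored 90, 91, 99 and 103, Lrp5, a co-receptor gene, 72, 91, 66 and 75, and the ligand gene Wnt7b 44, 41, 45 and 69. Hippo pathway genes gave 2 of 26, or 5 without the 25000-cell list, 8 at a score limit of 30 and 0 at 60. The 2 were the TEAD cofactor gene Vgll4 with 52, 97, 71 and 73 and the tumour suppressor gene Nf2 with 46, 43, 51 and 41. AP-1 and immediate early genes gave 2 of 20, and both lay in short genes close to an end. Maff scored 51, 69, 58 and 47 at one of its internal starts, and Jund 48, 55, 49 and 62 at 1.01 kb from the outer start.

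Nuclear receptor and circadian genes had 8 hosts of 32 (25%), the largest share of the 21 lists, at a median gene length of 70.8 kb. Other lists had larger shares at score limits of 30 and 60, by score percentile (5 hosts), and beyond 2 kb (5 hosts) and 5 kb (3 hosts) from gene ends. Nr3c2, the mineralocorticoid receptor gene, scored 60, 86, 67 and 110 at an internal start. Arntl, which encodes the clock factor BMAL1, scored 65, 86, 67 and 68 at chr7:113206751-113208000, also at an internal start, while its outer start had no peak. The coactivator gene Ncoa2 scored 50, 79, 62 and 94. The clock genes Per1 and Nr1d1 and the receptor genes Rara and Pparg were hosts too. Chromatin regulators gave 4 of 29. Hdac4 scored 65, 127, 109 and 107 at its internal start, Arid1b, a subunit gene of SWI/SNF, 61, 68, 84 and 72, and the histone demethylase gene Kdm6b 64, 59, 90 and 74. Hdac7 was the fourth.

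The 6 lists of other cell types and of differentiated mammary cells together had 4 hosts among 118 genes (3.39%, 0.931 to 8.45), near the 3.16% of all autosomal protein-coding genes. There were 0 of 19 luminal and milk protein genes, 0 of 18 blood genes, 0 of 19 muscle and liver genes, and 1 of 20 basal genes, which was Egfr. Neuron genes gave 2 of 22, Rbfox1 and the glutamate receptor gene Gria1 (70, 45, 59 and 61), in a list with a median gene length of 444 kb. Cdh5, the cadherin gene of endothelium, was the 1 host among 20 endothelial and fibroblast genes, with 47, 54, 50 and 57 at chr8:104121551-104122400 and no gene-end peak in all 4 lists. At a score limit of 30 the neuron list had 6 hosts and the basal list 3. The luminal and milk protein list and the endothelial and fibroblast list had 1 each. The blood list and the muscle and liver list stayed at 0. At that limit 1149 of all autosomal protein-coding genes were hosts. Of 18 autosomal housekeeping genes Actb was the only host at the limit of 40, with 53, 53, 40 and 84 in a gene of 4.86 kb.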

How the data were processed

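The genome build was mm10, and bedtools 2.17.0, Picard 1.107, Bowtie 0.12.8, cutadapt and SAMtools were used, per the submitters' processing notes. Their roles, how peaks were called and any shift of reads for Tn5 were not stated in the sources used here. Peak lists were deposited separately for each library, and the deposited score is a whole number of 8 or more whose computation is not stated. Scores chose and ranked peaks within each list. The ratios of scores between lists or regions only describe the deposited values, since their scale is not stated. Lists carry no counts, so depth is unknown, and whether reads were reduced to like numbers before peaks were called is not stated.

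Peaks were merged and classified in Python 3.11.15 with pandas 2.3.3, NumPy 2.4.6 and SciPy 1.17.1, against the RefSeq gene table of GRCm38.p6, and intervals were computed with SciPy. Strand and starts came from the RefSeq start table, matched by gene ID, which holds 16457 of 20665 autosomal protein-coding genes. On 400 constructed genes the rule returned all 100 planted regions and no other. Regions were named by rule: the 12 with the highest mean score percentile, the 6 genes with most regions, up to 3 hosts per gene list, the widest, farthest and least even, and those at the threshold. Members and gene lists were chosen with earlier results of these data known. Results for some of these genes are not reported here. The groups came from the sample titles. Alternatives changed the score and distance limits, merging, centre, gene ends and the lists used.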

Additional observations from a re-analysis of the deposited data

How the results depend on the processing

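Counts depended most on the score limit. At a limit of 30, 1422 regions in 1149 genes qualified, 16.7% of the intragenic regions found in all 4 lists, with 54 genes of 3 or more regions and 95 listed genes. At 60 these values were 191 regions, 181 genes, 2.25%, 2 genes and 16 genes, with a gene-end peak at 55.2% of hosts and an internal start in 31.9% of regions. With score percentiles in place of scores, 559 regions (6.58%) qualified. Beyond 2 kb from gene ends the median distance was 10552 bp and 22.4% had an internal start. Beyond 5 kb there were 474 regions in 422 genes (7.92%), at a median of 15172 bp, with 8 genes of 3 or more regions, 33 listed genes and 19.2% with an internal start, and beyond 10 kb 13.1%. With ends of protein-coding genes only the median distance was 12634 bp. Peaks resized to 200 bp gave regions 250 bp wide by construction, 15.2% with an internal start.

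Leaving out each library in turn gave 763 to 987 regions, 8.48% to 10.2% of intragenic regions and 14 to 29 genes with 3 or more, the highest of each without the 25000-cell library. Each omission removes a condition of the definition, so counts rise or stay by construction, apart from small changes in merging. The percentages are of intragenic regions found in all the remaining lists. Without the 75000-cell library, epithelial transcription factor genes gave 2 hosts in place of 1 and luminal and milk protein genes 1 in place of 0, and without either the 25000- or the 50000-cell library housekeeping genes gave 2 in place of 1. Leaving out chromosome 19 or 6 to 8 Mb of chromosome 15, chosen after seeing the data, left 643 and 708 regions. The share with an internal start was also chosen after seeing the data. Motif shares in whole regions were not run, for want of a genome of this build. No paired analysis was possible because each cell number has 1 library. Lists hold only scores of 8 or above, so a missing peak is not closed chromatin.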
